A study of Mus musculus with 8 samples.

Results

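The 9 genes described here were Stat2, Stat3, Stat6, Jak1, Jak2, Socs1, Ifngr1, Ifngr2 and Ifnlr1, which encode parts of the JAK-STAT pathway and of the receptors for interferon-γ (IFN-γ) and interferon-λ. They were chosen by name, as the rows of the deposited count table that carry these symbols, and all 9 were found among the 25239 genes listed. The study asked how CD1d, and the CD1d-restricted natural killer T (NKT) cells that depend on it, shape intestinal epithelial cells (IECs). Bulk RNA-seq was performed on crypt IECs of the duodenum, the proximal part of the small intestine, sorted as EpCAM+CD45-CD31-Ter119-. The CD1d-KO group held 4 samples from mice with both CD1d genes deleted in the germline (genotype label CD1d1/2 KO), so every cell of these mice lacks CD1d and they have no NKT cells. The WT group held 4 samples from C57BL/6Jax mice. The study's limitations state that its mice were not littermates, which may affect their gut microbiota, and this was not tested here. Per the study's methods, mice were 7 to 10 weeks old and the 8 samples came from 4 mice of each genotype. The labels give no treatment, and the design text of the deposited record gives 150000 sorted cells a sample and 2 experiments, without saying which sample belongs to which.

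Cytokine receptors of this kind have no kinase domain of their own and carry Janus kinases (JAKs) on their intracellular tails. When a ligand joins the receptor chains, the JAKs phosphorylate the receptor and then STAT proteins, which pair and enter the nucleus. IFN-γ acts mainly through GAS elements, type I interferons and interferon-λ through the ISGF3 complex, which holds STAT2 and IRF9, at ISRE elements, IL-6 and IL-22 through STAT3, and IL-4 and IL-13 through STAT6. In the gut, interferon-λ and IL-22 act largely on the epithelium, IL-4 and IL-13 drive epithelial responses to parasites, and SOCS1 is an inhibitor that binds JAKs.

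Total counts ranged from 29743061 to 31629435 fragments in CD1d-KO and from 23610266 to 29763051 in WT. The targeted gene Cd1d1 had 8, 3, 5 and 0 raw counts in CD1d-KO 1 to 4 and 81, 70, 94 and 50 in WT 1 to 4. All 14 epithelial markers were detected in every sample. The summed normalised count of 29 leukocyte markers was 347 to 423 in CD1d-KO and 424 to 1862 in WT, that of 17 markers of stomach or Brunner's glands was 834 to 1748 in CD1d-KO and 2721 to 17894 in WT, and that of 14 stromal and endothelial markers was 136 to 197 in CD1d-KO and 123 to 174 in WT. In the leukocyte list 5 genes, among them Cd3g, Cd8a, Jchain and Coro1a, were lower in CD1d-KO at an adjusted p under 0.05 of 23 tested, and in the stomach list 7 were lower and 1 higher of 14 tested. Ptprc, which encodes the CD45 excluded by the sort, had a mean normalised count of 54.5 in CD1d-KO and 96.3 in WT. Counts of Y-linked genes were present in CD1d-KO 1 and 2 (1926 and 2156 raw counts of Ddx3y, against at most 1 elsewhere), although the study's methods state that sexes were matched, so genotype within these samples could not be compared. Results are therefore also given with these samples left out, for CD1d-KO 3 and 4 against the 4 WT samples.

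The 9 genes were read at very different levels. Scaled for exon length and library size, as TPM (each sample has the same TPM total), the interferon-γ receptor chains Ifngr1 (199 to 215 in WT and 227 to 274 in CD1d-KO) and Ifngr2 (186 to 228 and 220 to 244) were highest, and their ranges overlapped each other in both genotypes. Stat6 followed at 114 to 121 TPM in WT and 111 to 129 in CD1d-KO, then Jak1 at 71.4 to 84.0 and 78.4 to 85.2. Jak2 stood at 47.2 to 53.0 TPM in WT and 46.2 to 56.8 in CD1d-KO. Stat3 was at 50.7 to 56.4 TPM in WT, overlapping Jak2, and at 39.8 to 44.7 in CD1d-KO, below every Jak2 value of that genotype. Stat2 (29.0 to 31.4 TPM in WT and 18.0 to 22.7 in CD1d-KO), Ifnlr1 (means of 12.5 and 10.9) and Socs1 (3.43 to 4.51 and 1.70 to 3.33) were the 3 lowest, with no overlap between neighbours in either genotype. Apart from the exchange of Jak2 and Stat3, the order was thus the same in both genotypes.

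**Figure D1:**
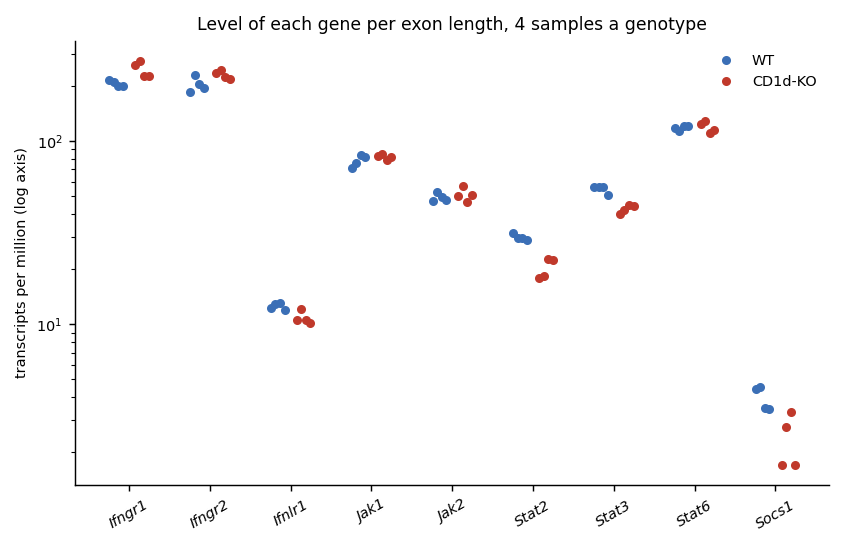
TPM (log axis) of each of the 9 genes in the 4 WT (blue) and 4 CD1d-KO (red) samples, each point a sample. Levels span from 1.70 TPM for Socs1 in a CD1d-KO sample to 274 for Ifngr1, and the genotypes separate most clearly for Stat2 and Stat3.

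In CD1d-KO IECs the transcripts of Stat2 and Stat3 were lower and that of Ifngr1, the ligand-binding chain of the IFN-γ receptor, was higher than in WT. These 3 of 9 genes passed the test (DESeq2, adjusted p under 0.05 by the Benjamini-Hochberg method over 15446 genes), 2 lower and 1 higher, where over all genes 4.03% passed in either direction, 2.38% lower and 1.65% higher. For 4 of the 9 (Stat2, Stat3, Ifnlr1 and Ifngr1) no CD1d-KO normalised count overlapped a WT one, which was so for 9.61% of all genes tested. The median log2 fold change over the 9 was 0.02, beside 0.00099 over all genes tested, since 4 of them were below 0 and 5 above.

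Ifngr1 (chr10:19591949-19610227, + strand), placed like the genes below by the mm10 coordinates of the count table, had normalised counts (fragments scaled by the DESeq2 size factor of the sample) of 6424, 6760, 5988 and 5859 in CD1d-KO 1 to 4 and of 5413, 5403, 5108 and 5039 in WT 1 to 4. Every CD1d-KO sample was above every WT sample, and CD1d-KO 1 and 2 were the highest. The mean was 6258 ± 413 in CD1d-KO and 5241 ± 195 in WT (SD, n = 4), a rise of 19.4%, or 0.26 ± 0.06 (SE) on the log2 scale (DESeq2 adjusted p = 0.00462). Without CD1d-KO 2 the log2 fold change was 0.22 and was no longer called (DESeq2 adjusted p = 0.0548), nor was it by edgeR (0.25, adjusted p = 0.0644) or in the samples without Y-linked counts (0.18, DESeq2 adjusted p = 0.288).

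Ifngr2 (chr16:91547059-91564007, + strand), the signalling chain of the same receptor, had 5858, 6003, 5925 and 5635 normalised counts in CD1d-KO 1 to 4 and 4672, 5833, 5184 and 4931 in WT 1 to 4. The groups overlapped through WT 2 alone. Its log2 fold change of 0.18 (95% interval 0.04 to 0.33) did not pass (DESeq2 adjusted p = 0.169), and without WT 2 it was 0.25 and did (DESeq2 adjusted p = 0.0117). Whether the 2 chains differ in their response was not tested.

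Ifnlr1 (chr4:135686457-135708180, + strand), the chain that gives the interferon-λ receptor its specificity, had 499, 567, 531 and 499 normalised counts in CD1d-KO 1 to 4 and 587, 625, 629 and 575 in WT 1 to 4. All CD1d-KO values lay below all WT values on this scale, by a narrow gap between CD1d-KO 2 and WT 4, while on the TPM scale the same samples overlapped. The log2 fold change was -0.21 (95% interval -0.37 to -0.04) and did not pass (DESeq2 adjusted p = 0.176). Its partner chain Il10rb, shared with the IL-10 and IL-22 receptors, was at 2149 ± 134 in CD1d-KO and 2025 ± 69.7 in WT (DESeq2 log2 fold change 0.09, adjusted p = 0.616).

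The kinases Jak1 and Jak2, which sit on the IFN-γ receptor chains, were close in both genotypes. Jak1 (chr4:101151974-101265282, - strand) had 5177, 5277, 5195 and 5312 normalised counts in CD1d-KO 1 to 4 and 4506, 4896, 5362 and 5223 in WT 1 to 4. The 4 CD1d-KO values fell within the WT range, and the log2 fold change was 0.07 (95% interval -0.06 to 0.20; DESeq2 adjusted p = 0.715). Jak2 (chr19:29251803-29313092, + strand) had 3005, 3365, 2930 and 3128 in CD1d-KO 1 to 4 and 2851, 3258, 3035 and 2901 in WT 1 to 4, with a log2 fold change of 0.04 (95% interval -0.09 to 0.18; DESeq2 adjusted p = 0.863). Both intervals hold only changes smaller than the one of Stat3. Exons of Jak1 share 397 bases with Raver2 on the opposite strand, and strand was not used in counting.

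Stat2 (chr10:128270498-128292853, + strand), the STAT of the ISGF3 complex, was the member with the largest Wald statistic. It had 947, 963, 1269 and 1219 normalised counts in CD1d-KO 1 to 4 and 1673, 1614, 1602 and 1555 in WT 1 to 4. The WT samples lay close together, every CD1d-KO sample was below them, and within CD1d-KO the samples with Y-linked counts (1 and 2) were lower than the others. The mean fell by 31.8%, from 1611 ± 48.5 in WT to 1099 ± 168 in CD1d-KO (SD, n = 4), a log2 fold change of -0.55 ± 0.10 (DESeq2 adjusted p = 1.94e-05). It was called in all 8 fits that left out 1 sample (log2 fold change -0.63 to -0.48) and in the samples without Y-linked counts, at a smaller size (-0.37, DESeq2 adjusted p = 0.00399). Stat2 exons share 220 bases with Apof on the same strand, whose mean normalised count was 3.24, and fragments there that could not be assigned to 1 gene were not counted.

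Stat3 (chr11:100886806-100939540, - strand), which carries signals of the IL-6 and IL-10 families including IL-22, had 2117, 2215, 2524 and 2442 normalised counts in CD1d-KO 1 to 4 and 3013, 3070, 3073 and 2747 in WT 1 to 4. All CD1d-KO values were below all WT values, and CD1d-KO 1 and 2 were again the lowest. The mean was 2325 ± 190 in CD1d-KO and 2976 ± 155 in WT (SD, n = 4), a log2 fold change of -0.36 ± 0.08 (DESeq2 adjusted p = 0.000304), so that the transcript fell by 21.9%. It was called in all 8 fits that left out 1 sample and not in the samples without Y-linked counts (-0.26, DESeq2 adjusted p = 0.0830).

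Stat6 (chr10:127642986-127660987, + strand), the STAT of IL-4 and IL-13, had 5580, 5731, 5291 and 5337 normalised counts in CD1d-KO 1 to 4 and 5345, 5249, 5563 and 5530 in WT 1 to 4. The ranges overlapped throughout, and the log2 fold change was 0.02 (95% interval -0.09 to 0.12; DESeq2 adjusted p = 0.949). Its exons share 70 bases with Nab2 on the opposite strand. The 95% intervals of Stat2 (-0.76 to -0.35) and Stat3 (-0.51 to -0.21) did not meet that of Stat6.

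Socs1 (chr16:10783809-10785536, - strand), an inhibitor that blocks JAK activity and is itself induced by interferons, was the least abundant member. Its raw counts were 30, 45, 57 and 29 in CD1d-KO 1 to 4 and 72, 70, 58 and 45 in WT 1 to 4, which is 26.8, 42.9, 55.7 and 27.8 against 70.7, 73.4, 56.2 and 55.0 after normalisation. CD1d-KO 3 stood at the level of WT 3 and WT 4, and the other CD1d-KO samples were below all WT samples. On the TPM scale the genotypes did not overlap, by a narrow gap (1.70 to 3.33 in CD1d-KO and 3.43 to 4.51 in WT). The log2 fold change was -0.74 with a wide 95% interval of -1.29 to -0.19 and did not pass (DESeq2 adjusted p = 0.124). Without CD1d-KO 3 it was -0.98 and passed (DESeq2 adjusted p = 0.0248).

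**Figure D2:**
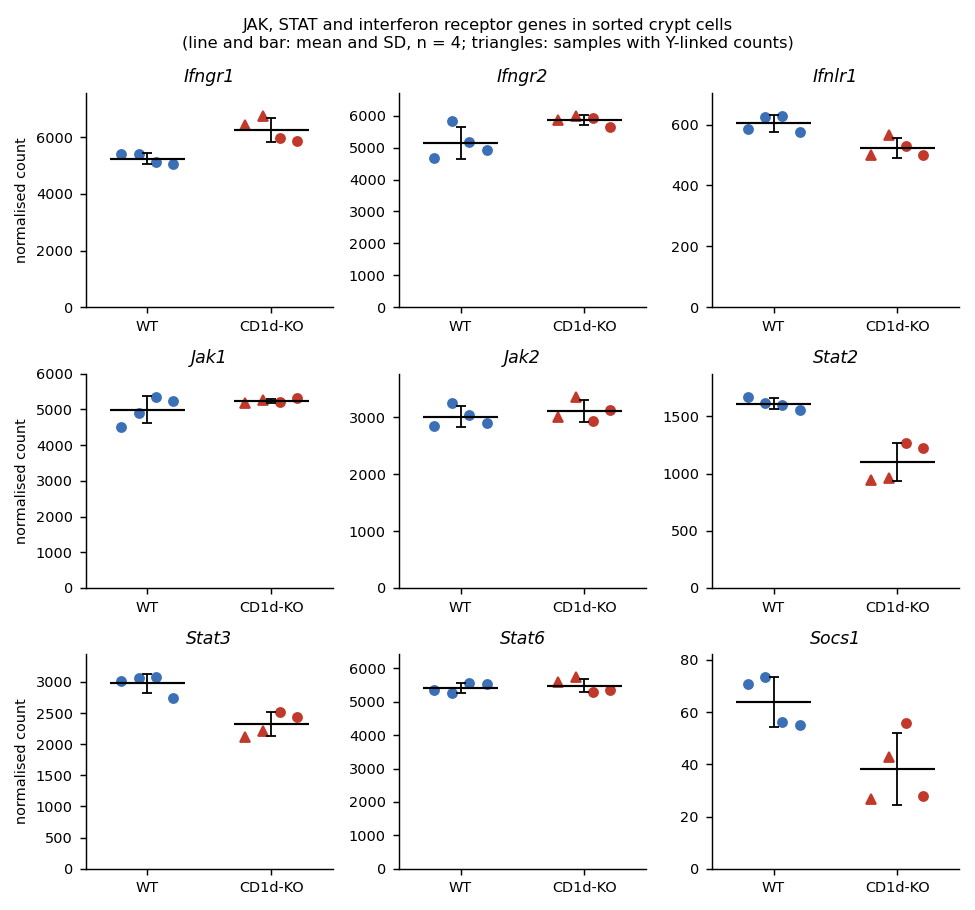
Normalised counts (axis from 0) of the 9 genes in WT (blue) and CD1d-KO (red), each point a sample, with the mean and SD (n = 4) and triangles for CD1d-KO 1 and 2, the samples with Y-linked counts. Stat2 lies at 947 to 1269 in CD1d-KO and at 1555 to 1673 in WT, and Ifngr1 is shifted the other way.

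The calls were also set against the marker genes of other cells. In bulk samples, fewer cells of a type and less RNA per cell cannot be told apart. With the score of the leukocyte markers in the DESeq2 model none of the 9 genes was called: Stat2 was at -0.47 ± 0.14 (adjusted p = 0.0681), Stat3 at -0.30 ± 0.11 (0.210) and Ifngr1 at 0.28 ± 0.09 (0.143). With the score of the stomach markers none was called either, with Stat2 at -0.41 ± 0.20 (DESeq2 adjusted p = 0.502), Stat3 at -0.29 ± 0.16 (0.569) and Ifngr1 at 0.09 ± 0.12 (0.906). Both scores differ between the genotypes, and the SE of all 3 genes grew in these fits. WT 4 and CD1d-KO 4, a single sample of each genotype, had nearly the same leukocyte sum (424 and 423) but stomach sums of 7953 and 1748. In these samples Stat2 was at 1555 and 1219, Stat3 at 2747 and 2442 and Ifngr1 at 5039 and 5859. The stomach sums of the genotypes did not overlap. The part of leukocyte or stomach RNA in these results was not tested beyond these values.

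**Figure D3:**
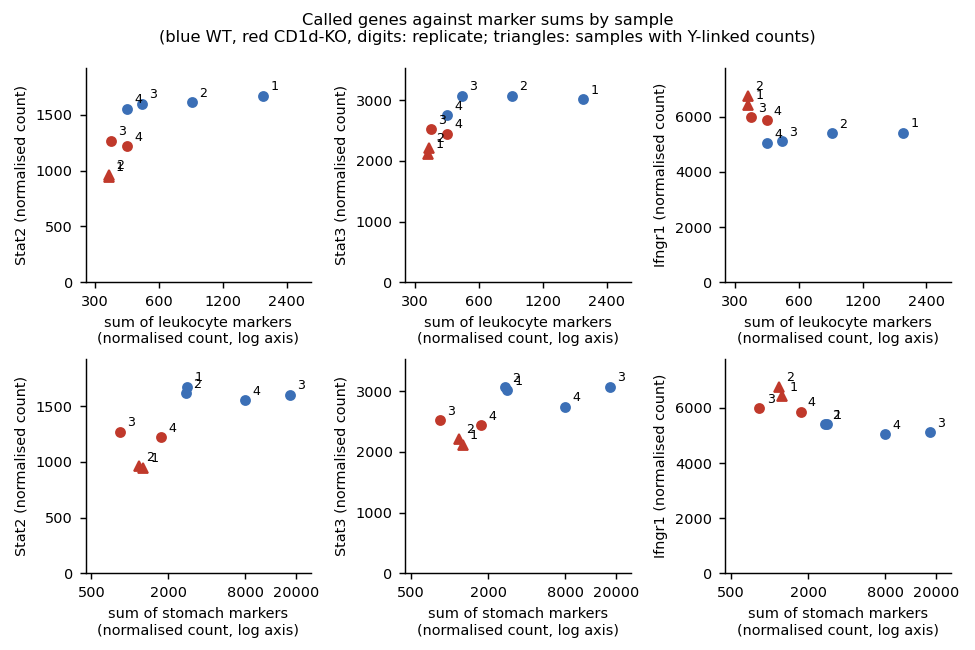
Normalised counts of Stat2, Stat3 and Ifngr1 (axis from 0) against the summed normalised count of 29 leukocyte markers (top) and 17 stomach markers (bottom) on a log axis, with WT in blue, CD1d-KO in red, digits for the replicate number and triangles for CD1d-KO 1 and 2. Among WT samples Stat2 was at 1555, 1602, 1614 and 1673 at leukocyte sums of 424, 500, 857 and 1862.

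**Figure D4:**
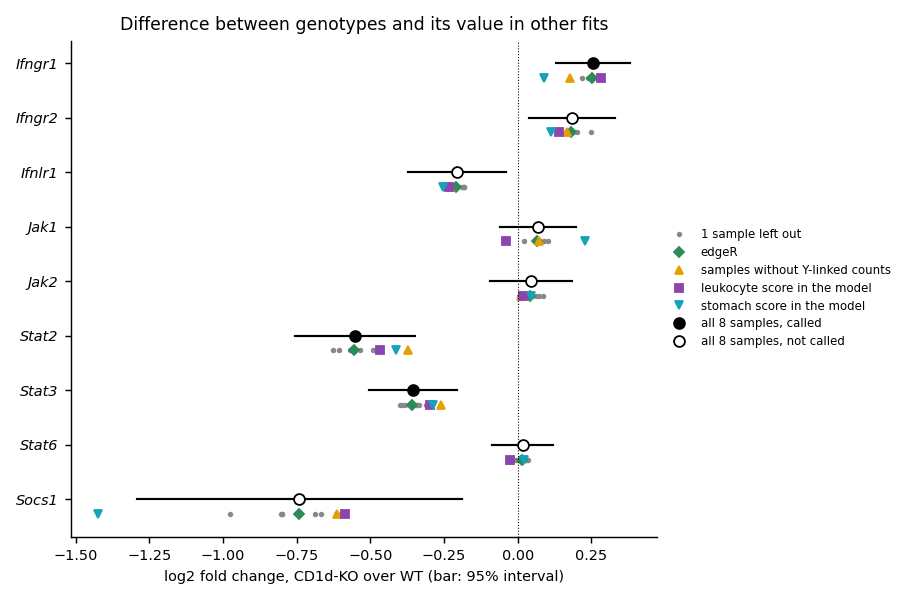
Log2 fold change of CD1d-KO over WT for the 9 genes, with the 95% interval of the fit to all 8 samples (black, filled where called) and, below each, the values with 1 sample left out (grey), by edgeR (green), in the samples without Y-linked counts (orange) and with the leukocyte (purple) or stomach (cyan) score in the model. Stat2, Stat3 and Socs1 stay below 0 in every fit shown (Stat2 -0.63 to -0.37, Socs1 -1.43 to -0.59) and Ifngr1 above 0 (0.09 to 0.29).

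Across the 8 samples Stat2 and Stat3 varied together, with Pearson's r of 0.98 on log2 normalised counts and of 0.88 after the mean of each genotype was removed. Ifngr1 ran opposite to Stat2 (r = -0.94, and -0.69 within genotypes). Stat6 also ran opposite to Stat2 within genotypes (r = -0.81), although the mean of Stat6 hardly differed between them. These values describe 8 libraries that share genotype and, for CD1d-KO 1 and 2, Y-linked counts. Among the 11720 genes whose normalised counts averaged 50 or more, those with a pattern over the 8 samples most like that of Stat2 were Fgd6, Psmb10 and Tapbpl (r = 0.98 each), of which Psmb10 encodes an immunoproteasome subunit and Tapbpl a tapasin-like protein of antigen presentation. For Stat3 they were Ift22 (r = 0.99), Stat2 and Parp10, and for Ifngr1 they were Shld2, Rgs7bp and Sord (r = 0.98 each). For Socs1 they were Nelfb (r = 0.95), Cmtr2 and Crot.

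The promoters of the genes were read for the sequences that these pathways use, since several of these genes are known to be induced by interferon themselves. All 9 had an entry in the RefSeq promoter table (build GRCm38.p6, the mm10 coordinates of the count table), and the 250 bases before the start given there were searched on both strands. That start equals the gene end or start of the count table for all but Jak1, where it lies inside the gene as placed above. The patterns were GAAANNGAA (ISRE-like), found in 7.13% of 32851 promoters, and the GAS forms TTCNNNGAA (7.02%) and TTCNNNNGAA (5.85%). Of the 9 genes 3 held a match and 6 (Stat3, Stat6, Jak1, Jak2, Ifngr1 and Ifnlr1) held none, where 18.3% of all promoters held at least 1. Stat2 had an ISRE-like match on the reverse strand from base -221 and a GAS match from -210, Socs1 had 2 ISRE-like matches from -83 and -77 that overlap each other, and Ifngr2 had a GAS match from -91. The stretches of 100 bases below are shown 5′ to 3′ on the strand of the gene for these 3 genes and for the called genes Stat3 and Ifngr1, with matches in capitals. Stat2 lies at chr10:128270248-128270347 (+, bases -250 to -151), and the rest cover bases -100 to -1 at chr16:10785537-10785636 (-) for Socs1, chr16:91546959-91547058 (+) for Ifngr2, chr11:100939541-100939640 (-) for Stat3 and chr10:19591849-19591948 (+) for Ifngr1.
Stat2: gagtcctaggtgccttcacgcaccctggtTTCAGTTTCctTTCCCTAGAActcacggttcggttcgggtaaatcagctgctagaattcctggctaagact
Socs1: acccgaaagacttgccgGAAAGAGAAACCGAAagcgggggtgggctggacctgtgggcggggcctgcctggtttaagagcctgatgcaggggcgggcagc
Ifngr2: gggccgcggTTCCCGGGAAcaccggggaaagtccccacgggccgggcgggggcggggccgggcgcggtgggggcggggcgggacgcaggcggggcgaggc
Stat3: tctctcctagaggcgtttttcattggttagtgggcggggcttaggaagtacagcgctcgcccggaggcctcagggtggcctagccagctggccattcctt
Ifngr1: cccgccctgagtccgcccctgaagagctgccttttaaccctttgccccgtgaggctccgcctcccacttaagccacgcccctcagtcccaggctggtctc
The genes with a match thus included Stat2, which fell, and Socs1 and Ifngr2, which did not pass the test, while the called genes Stat3 and Ifngr1 had none of these letters in the window. A match is a description of the letters and does not show that a factor binds there.

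The other genes of the pathway were taken from lists by role, 190 genes of which 144 were tested. Of these, 121 had a log2 fold change below 0 and 23 above, with a median of -0.33. At a DESeq2 adjusted p under 0.05, 41 were called lower and 3 higher in CD1d-KO, beside 2.38% and 1.65% of all genes tested. The lists were chosen with earlier results of these data known. Among 19 other receptor chains tested, 12 lay below 0 and 7 above, and 3 were called lower and 2 higher. The chains of the type I interferon receptor did not pass: Ifnar1 was at 2285 ± 45.7 in CD1d-KO and 2304 ± 87.3 in WT (log2 fold change -0.01, DESeq2 adjusted p = 0.968) and Ifnar2 at 219 ± 27.6 and 241 ± 25.9 (-0.14, DESeq2 adjusted p = 0.719). The IL-22 receptor chain Il22ra1 (-0.18, DESeq2 adjusted p = 0.430) and the IL-4 receptor chain Il4ra (-0.29, DESeq2 adjusted p = 0.129) did not pass either, and the value of Il4ra moved with single samples, to -0.19 without WT 2 and to -0.37 without WT 4, where it passed (DESeq2 adjusted p = 0.0120). Ghr, the growth hormone receptor, rose from 586 to 841 (0.52, DESeq2 adjusted p = 0.000117) and was called in all 8 fits with 1 sample left out. The calls of Il6st (gp130, the shared chain of the IL-6 family; -0.25), Il15ra (-0.41) and Crlf2 (the TSLP receptor chain; -0.71), which fell, and of Prlr (the prolactin receptor; 0.26), which rose, were each lost in at least 1 of those 8 fits. Il6st lost its call without WT 1, WT 4, CD1d-KO 1 or CD1d-KO 2, Il15ra also without WT 2, Crlf2 without WT 1 or WT 3, and Prlr without WT 1, WT 2, WT 3, CD1d-KO 2 or CD1d-KO 4 (DESeq2 adjusted p up to 0.168).

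Of the other JAKs, Jak3, which signals from the common γ chain of lymphocyte cytokine receptors, was at 272 to 304 normalised counts in CD1d-KO and 388 to 507 in WT and fell by 0.57 on the log2 scale (DESeq2 adjusted p = 8.39e-05). Tyk2, the kinase of IFNAR1, was at 1690 to 1947 in CD1d-KO and 2065 to 2191 in WT without overlap, and did not pass (-0.20, DESeq2 adjusted p = 0.0591). Of the other STATs and Irf9, Irf9 alone was called. This DNA-binding partner of STAT2 was at 1011 to 1182 in CD1d-KO and 1328 to 1582 in WT (-0.45, DESeq2 adjusted p = 9.16e-06). Stat5a (0.01) and Stat5b (-0.09) were close in both genotypes, and Stat4 had at most 7 raw counts. Jak3 and Irf9 were called in all 8 fits with 1 sample left out and in the samples without Y-linked counts, and neither was called with the leukocyte or the stomach score in the model.

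Among 18 other inhibitors tested, 1 was called. Socs3, the inhibitor that binds gp130 and is induced by STAT3, was at 361 to 476 in CD1d-KO and 626 to 1223 in WT (-1.10, DESeq2 adjusted p = 6.44e-07), and the call was lost in the samples without Y-linked counts. Usp18, a brake on type I interferon signalling (-0.69, DESeq2 adjusted p = 0.132), and Cish (-0.51, DESeq2 adjusted p = 0.205) did not pass, and Cish moved to -0.29 without WT 2 and to -0.71 without CD1d-KO 4, where it passed (DESeq2 adjusted p = 0.0262). Of 37 ligands in the table only 6 were read deeply enough to be tested. Ifng had at most 3 raw counts in a sample and Il4 at most 1, and Ifnl2 and Ifnl3 had 0 in all 8 samples, so differences of these cytokines were not detectable at this depth in sorted IECs. Il7, a cytokine of lymphocyte survival, was at 36.7 to 61.4 in CD1d-KO and 72.3 to 110.5 in WT (-0.86, DESeq2 adjusted p = 0.0128), and lost its call when WT 1, WT 3, CD1d-KO 1 or CD1d-KO 2 was left out.

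Genes known to be induced through the pathway were grouped by the factor they depend on. These lists were chosen with earlier results of these data known, so their counts and medians may partly reflect that choice. Of 28 genes induced by IFN-γ through GAS elements and IRF1, 27 had a log2 fold change below 0 and 1 above (median -0.70). Among them 12 were called lower and none higher, beside 2.38% and 1.65% of all genes tested. Those called were the transcription factors Irf1 and Nlrc5, the antigen-processing genes Tap1, Tapbp, Psmb9, Psmb10 and Psme2, the GTPases Gbp3, Gbp6 and Gbp7, the chemokine Cxcl9 and the ubiquitin-like Ubd. Irf1 went from 7018 in WT to 5566 in CD1d-KO (-0.33, DESeq2 adjusted p = 0.000465), Tap1 from 2554 to 1595 (-0.68, 0.000639) and Ubd from 63.5 to 12.5 (-2.36, 4.1e-05). In the samples without Y-linked counts 7 of the GAS-type genes were called lower and the median was -0.25. With the stomach score none was called and the median was -0.32. edgeR called 5, the leukocyte score left 1, and leaving out 1 sample gave 6 (without WT 2), 7 (without WT 4 or CD1d-KO 2) or more. Of 35 genes induced through ISGF3, 33 lay below 0 and 2 above (median -0.37). Irf7, Mx2, Oas2, Parp14, Adar and Sp100 were called lower, 6 in all, and none was called higher. Parp14 was at 2234 in CD1d-KO against 3221 in WT (-0.53, DESeq2 adjusted p = 8.17e-05) and Adar at 2384 against 2964 (-0.31, 5.94e-05). In the samples without Y-linked counts 1 of the 35 ISGF3-type genes was called lower and the median was -0.08. With the stomach score none was called and the median was -0.01. edgeR called 2 and the leukocyte score left none. Over all genes tested, 196 of 14473 were called lower in the samples without Y-linked counts and 147 of 13744 by edgeR. With the leukocyte score 104 of 15086 were, and with the stomach score 57 of 15086. Of the 35 ISGF3-type genes, 3 were called lower without CD1d-KO 1 or WT 4 and 2 without CD1d-KO 2. Without CD1d-KO 4 it was 10 of the 35, and without CD1d-KO 3 it was 11, where the median of the list was -0.55.

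Of 18 genes induced through STAT3 in epithelium, 16 lay below 0 and 2 above (median -1.20). Among them 10 were called lower and 1 higher, beside 2.38% and 1.65% of all genes tested. Those called lower were Duox2, an oxidase that makes hydrogen peroxide, its maturation factor Duoxa2, Nos2, Reg3b, Reg3g, Bcl3, Fut2, Lcn2, Saa1 and Muc1. Duoxa2 was at 212 to 246 in CD1d-KO and 394 to 835 in WT (-1.64, DESeq2 adjusted p = 1.12e-13) and Nos2 at 426 to 831 and 1707 to 2908 (-1.89, 5.2e-11). Reg3a rose, from 1309 to 1873 in WT to 2006 to 3522 in CD1d-KO (0.83, DESeq2 adjusted p = 3.02e-05), against the direction of Reg3b and Reg3g. In the samples without Y-linked counts the STAT3-type median was -0.76, with 6 called lower and 1 higher. Over all genes tested, 196 of 14473 were called lower in that fit and 176 higher. With the stomach score the STAT3-type median was -0.61, with 4 called lower, beside 57 of 15086 over all genes tested. Of 13 genes induced through STAT6, 11 lay below 0 and 2 above (median -0.64), although Stat6 itself differed by 0.02. Retnlb, Pla2g4c, Sprr2a3, Gsdmc2, Gsdmc3 and Gsdmc4 were called lower, 6 in all. None was called higher, and over all genes tested the shares were 2.38% lower and 1.65% higher. The median was -0.12 in the samples without Y-linked counts, where 6 were also called, and -0.05 with the stomach score, where 1 was. It also moved with single samples, to -0.42 without CD1d-KO 2 or WT 4 and to -1.06 without CD1d-KO 4, with 6 calls in each. Pla2g4c was at 107 to 212 in CD1d-KO and 565 to 642 in WT (-1.90, DESeq2 adjusted p = 1.73e-26). Counts of the Reg3, Sprr2a, Gsdmc and Gbp genes are uncertain where reads fit several members of these families.

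Of the 44 pathway genes called, 26 were called in all 8 fits that left out 1 sample, and 18 lost the call in at least 1 of them, among them Nlrc5, Tapbp, Psmb9, Psme2, Gbp3, Gbp6, Cxcl9, Irf7, Mx2, Oas2, Sp100, Fut2 and Lcn2 of the target lists. In the samples without Y-linked counts 22 of the 44 were called, with the leukocyte score 12 and with the stomach score 6 (Socs3, Bcl3, Nos2, Duox2, Duoxa2 and Pla2g4c). The leukocyte and stomach marker sums were lower in CD1d-KO beside these genes, and their part was not tested beyond these fits.

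**Figure D5:**
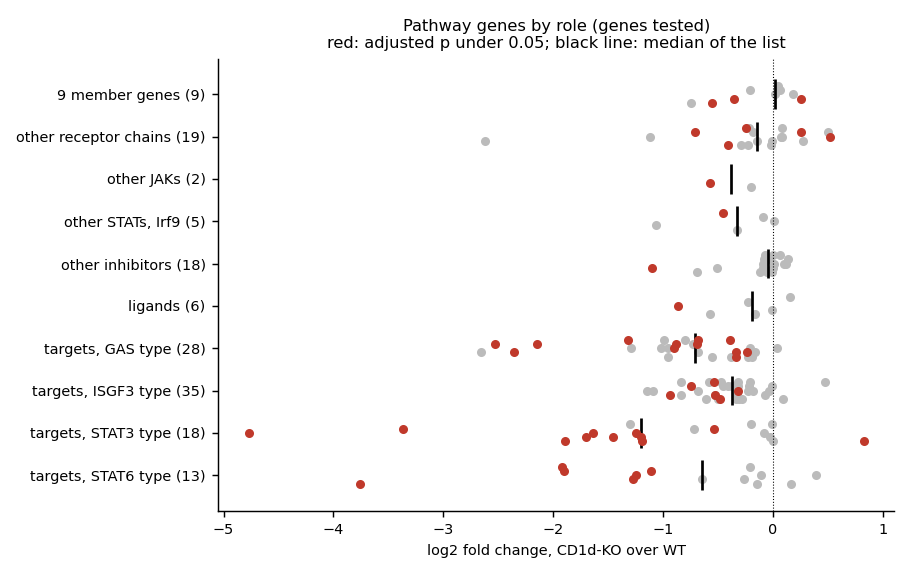
Log2 fold change of CD1d-KO over WT for the 9 genes and for the other pathway genes by role, each point a tested gene (number in brackets), red where the DESeq2 adjusted p was under 0.05, with a black line at the median of each list. The medians of the target lists lie to the left of 0 (-0.70, -0.37, -1.20 and -0.64), though single genes such as Reg3a lie to the right. They were -0.25, -0.08, -0.76 and -0.12 in the samples without Y-linked counts and -0.32, -0.01, -0.61 and -0.05 with the stomach score. The median of the 9 genes is 0.02. The lists were chosen with earlier results of these data known.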

How the data were processed

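Poly(A) RNA libraries (KAPA mRNA HyperPrep) of 8 sorted IEC samples, 4 CD1d-KO and 4 WT by the labels, were used. The authors deposited raw fragment counts per gene, made per the file headers with featureCounts 1.6.4 over exons of an mm10 annotation, with primary alignments, no strand and no fragments overlapping several genes. The study's methods name HISAT2 and GRCm39, which differs from the header. The table held 0 unused sample columns.

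The study's tool, DESeq2 1.42.0 in R 4.3.3, was fitted to all 8 samples with genotype as its term. P-values were adjusted by Benjamini-Hochberg over 15446 genes, an adjusted p under 0.05 was called, while 3638 genes fell under the independent filter (mean of 2.41) and 4 under Cook's rule and were not tested. TPM was computed from counts and exon lengths. Intervals are 95% Wald intervals. Counting error was about as large as the replicate SD for Jak1 in CD1d-KO and for Stat2, Ifnlr1 and Socs1 in WT, and covers counting only. Counts of samples of a genotype differed beyond sampling noise in every pair (chi-square statistic per degree of freedom 9.73 to 37.2).

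Alternatives were edgeR 4.0.16 (quasi-likelihood, TMM), TMM factors, size factors without the 50 most abundant genes, a minimum of 10 counts in 4 samples, no independent filtering, a replicate block, each sample left out, the samples without Y-linked counts, and marker scores (mean log2 normalised count per list) as covariates. Named genes were the 9, the pathway genes called, the 3 most extreme per list, interferon-related genes whatever their result, and the 3 most correlated genes of a member. The 9 genes, lists and tests were chosen with earlier results of these data known. Some genes of these lists are not reported here by name.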

Additional observations from a re-analysis of the deposited data

How the results depend on the processing

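The direction of Stat2, Stat3, Socs1, Ifngr1, Ifngr2, Ifnlr1 and Jak2 was the same in all 17 alternatives. Of the 9 genes 3 were called in the fit reported, 1 (Stat2) in the samples without Y-linked counts, and 0 with the leukocyte or the stomach score in the model; leaving out 1 sample gave 2 to 4. The number of pathway genes called went from 44 to 26 by edgeR and to 24 without the Y-linked samples (22 of them among the 44). It was 12 with the leukocyte score, 6 with the stomach score and 30 to 52 with 1 sample left out. Over all genes the number called went from 622 to 228 by edgeR (224 of them among the 622) and to 372 without the Y-linked samples (248). It was 169 with the leukocyte score (144 among the 622) and 106 with the stomach score (62). With 1 sample left out it was 323 to 646, the lowest being 323 without CD1d-KO 2, 385 without WT 2 and 406 without WT 1. The cause of these shifts was not tested, and some of these fits hold fewer samples. No scaling moved the median of all genes by more than 0.01 on the log2 scale.

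Same-numbered samples did not deviate together throughout (correlations 0.29, 0.03, 0.22 and 0.004 over 11721 genes) and the labels do not pair them. With a replicate block the same number of the 9 genes was called (3), with 46 pathway genes and 569 genes in all, 434 of them among the 622.

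Values near 0 changed sign: Stat6 (-0.0276 without the Y-linked samples, -0.0259 with the leukocyte score and -0.0045 to 0.0334 with 1 sample left out), Jak1 (-0.0415 with the leukocyte score), Stat5a (-0.0437 to 0.0772 with 1 sample left out and -0.0986 with the leukocyte score) and Ifnar1 (-0.0314 to 0.0059 with 1 sample left out, 0.0129 without the Y-linked samples and 0.0842 with the stomach score). Usp18, at -0.69, was at 0.17 with the stomach score.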
